A study of Mus musculus with 10 samples.

Results

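The genes described are 4 plexins (Plxnc1, Plxna1, Plxnb2 and Plxnd1), the neuropilin Nrp1 and 4 semaphorins (Sema7a, Sema4a, Sema4b and Sema4d), 9 of the 19937 genes measured. They were chosen by name, with earlier results of these arrays known. The difference of Plxnc1 between cells with Pax5 and cells with empty vector is what drew attention to the family. The comparisons of these 9 genes with empty vector are therefore given as descriptions, with no p-value. The number called is printed beside the share of all genes, and in the last section for other settings, and supports nothing. Each gene is read by the probe set with the highest mean whose only symbol is that gene; Sema4d had 2 such probe sets and the other members 1 each.

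Plexins are single-pass membrane receptors whose cytoplasmic part acts on small GTPases of the Ras and Rap type. Their ligands are semaphorins, which are secreted, membrane-spanning or lipid-anchored proteins that share a sema domain with the plexins. Neuropilins are co-receptors that bind secreted semaphorins and vascular endothelial growth factor. For secreted semaphorins they signal through a partner plexin. The system is best known for repelling growing axons, and in the immune system it is known for steering cell migration, adhesion and contacts between lymphocytes and antigen-presenting cells.

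J558 is a mouse myeloma line, a tumour of antibody-secreting plasma cells, and its RNA was hybridised to Affymetrix gene arrays. There were 4 cultures with Pax5 G183S, 3 with wild-type Pax5 (Pax5 WT) and 3 with empty vector; Pax5 is the B-lineage transcription factor, and in G183S a glycine is replaced by serine. All cultures, controls included, carried the MSCV-Puro-IRES-GFP retroviral vector, were selected with puromycin for 5 to 7 days and were sorted for GFP and IgM. All cultures come from a single tumour line with the inserted gene driven by a retroviral vector, and the labels call the replicates independent and biological.

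Values are log2 expression per probe set, so 1 unit is a doubling. The transduced gene read as labelled, with Pax5 at 9.38 to 10.36 in the G183S arrays and 10.05 to 10.67 in the Pax5 WT arrays, against 6.84 to 7.10 with empty vector. Of 8 plasma-cell markers 0 passed limma's threshold in either comparison with empty vector, and their mean level lay at 10.52 to 11.54 in the G183S arrays and 11.05 to 11.50 in the Pax5 WT arrays, against 11.26 to 11.42 with empty vector. Single plasma-cell markers differed under that mean, and not all in 1 direction. Sdc1 (CD138) read 9.73 to 11.03 with G183S and 10.45 to 10.97 with Pax5 WT, against 11.22 to 11.51 with empty vector. Tnfrsf17 (BCMA) read 7.72 to 10.25 with G183S and 9.88 to 11.12 with Pax5 WT, against 10.83 to 11.36 with empty vector. Irf4 read 11.34 to 12.59 with G183S and 12.20 to 12.59 with Pax5 WT, against 11.77 to 12.02 with empty vector. For Prdm1 the ranges were 9.96 to 11.14, 10.49 to 11.12 and 10.40 to 10.51 in the same order of groups. For Xbp1 they were 12.42 to 13.03, 12.53 to 12.93 and 12.94 to 13.06. The summed T-cell marker signal was 8.60 to 8.80 log2 units with G183S and 8.63 to 8.80 with Pax5 WT, against 8.997 to 9.94 with empty vector, and 1 of its 6 measured genes, Cd3g, was called, lower in each comparison with empty vector. Summed endothelial markers read 9.11 to 9.59, 9.58 to 9.93 and 9.46 to 9.89 log2 units in the G183S, Pax5 WT and empty-vector arrays, with 1 of 7, Pecam1, called lower in each. Cdh5, of the same list, read 7.08 to 8.37 with G183S and 8.42 to 9.27 with Pax5 WT, against 6.89 to 7.72 with empty vector. Myeloid markers (8.56 to 9.44, 8.50 to 8.80 and 8.87 to 9.24 in the same order of groups) and stromal markers (9.67 to 9.86, 9.73 to 9.85 and 9.65 to 9.74) had 0 of 7 and 0 of 8 called. Sdc1, Tnfrsf17, Irf4, Prdm1, Xbp1 and Cdh5 were chosen after their values were seen. The part of these markers in the results below was not tested. G183S replicate 1 had the lowest of limma's 10 array weights (0.335).

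Plxnc1 encodes plexin C1, the receptor of Sema7a. The difference of Plxnc1 drew attention to the family, so its promoter is shown beside that of its ligand gene. The level of Sema7a differed little between the groups. Both stretches are the 250 bases before the annotated start, from RefSeq (GRCm38.p6), printed 5′ to 3′ in the direction of the gene. Plxnc1 lies on the minus strand (chr10:94944846-94945095) and Sema7a on the plus strand (chr9:57939862-57940111).
Plxnc1: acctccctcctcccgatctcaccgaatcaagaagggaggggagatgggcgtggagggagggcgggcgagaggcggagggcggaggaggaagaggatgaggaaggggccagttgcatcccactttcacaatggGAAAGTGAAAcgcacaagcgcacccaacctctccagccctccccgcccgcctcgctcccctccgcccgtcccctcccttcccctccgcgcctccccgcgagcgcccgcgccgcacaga
Sema7a: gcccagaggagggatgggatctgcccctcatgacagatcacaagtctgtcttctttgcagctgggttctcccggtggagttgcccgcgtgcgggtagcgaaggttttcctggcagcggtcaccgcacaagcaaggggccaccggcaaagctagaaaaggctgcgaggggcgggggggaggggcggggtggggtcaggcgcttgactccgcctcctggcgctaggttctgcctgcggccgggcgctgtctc
Capitals mark a match to an interferon regulatory factor element, searched as GAAA and GAAA with NN between them, which spans positions -118 to -109 of Plxnc1 on the strand of the gene. That motif was looked for after the sequence had been seen. Searched on both strands of windows of 300 bases, 250 before and 50 after a start, it occurs in 3.44% of 32851 RefSeq windows and in 1 of the 15 windows of the members, which cover 8 of the 9 genes. GCGTGAC, the core of the Pax5 paired-domain motif, occurs in 2.09% of all windows and in 0 of those 15. Neither motif's letters can hold the other, and a match describes the sequence only. The Plxnc1 stretch has a GC content of 68.8% with 22 CpG dinucleotides, and the Sema7a stretch 66.4% with 17.

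Plxnc1 was far higher in every culture given Pax5. It read 9.52, 9.54, 7.43 and 9.50 log2 units in the 4 G183S arrays and 9.98, 9.67 and 10.61 in the 3 Pax5 WT arrays, against 5.79, 5.41 and 5.88 with empty vector. All 7 Pax5 arrays lay above all 3 empty-vector arrays, and G183S replicate 3 stood about midway between the other Pax5 arrays and the controls. The log2 difference from empty vector was 4.39 ± 0.51 (limma SE) with Pax5 WT, or 21.0-fold, and 3.30 ± 0.48 with G183S, or 9.87-fold. In both comparisons this was the second-ranked increase of all 19937 genes. Without G183S replicate 3 the G183S difference was 3.82, and without replicate 1 it was 3.13. In RNA pooled from the sorted cells of a culture, a larger share of cells with the transcript and more transcript per cell cannot be told apart. How close the empty-vector values lie to the arrays' background is not known, since no background readings were used.

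**Figure D1:**
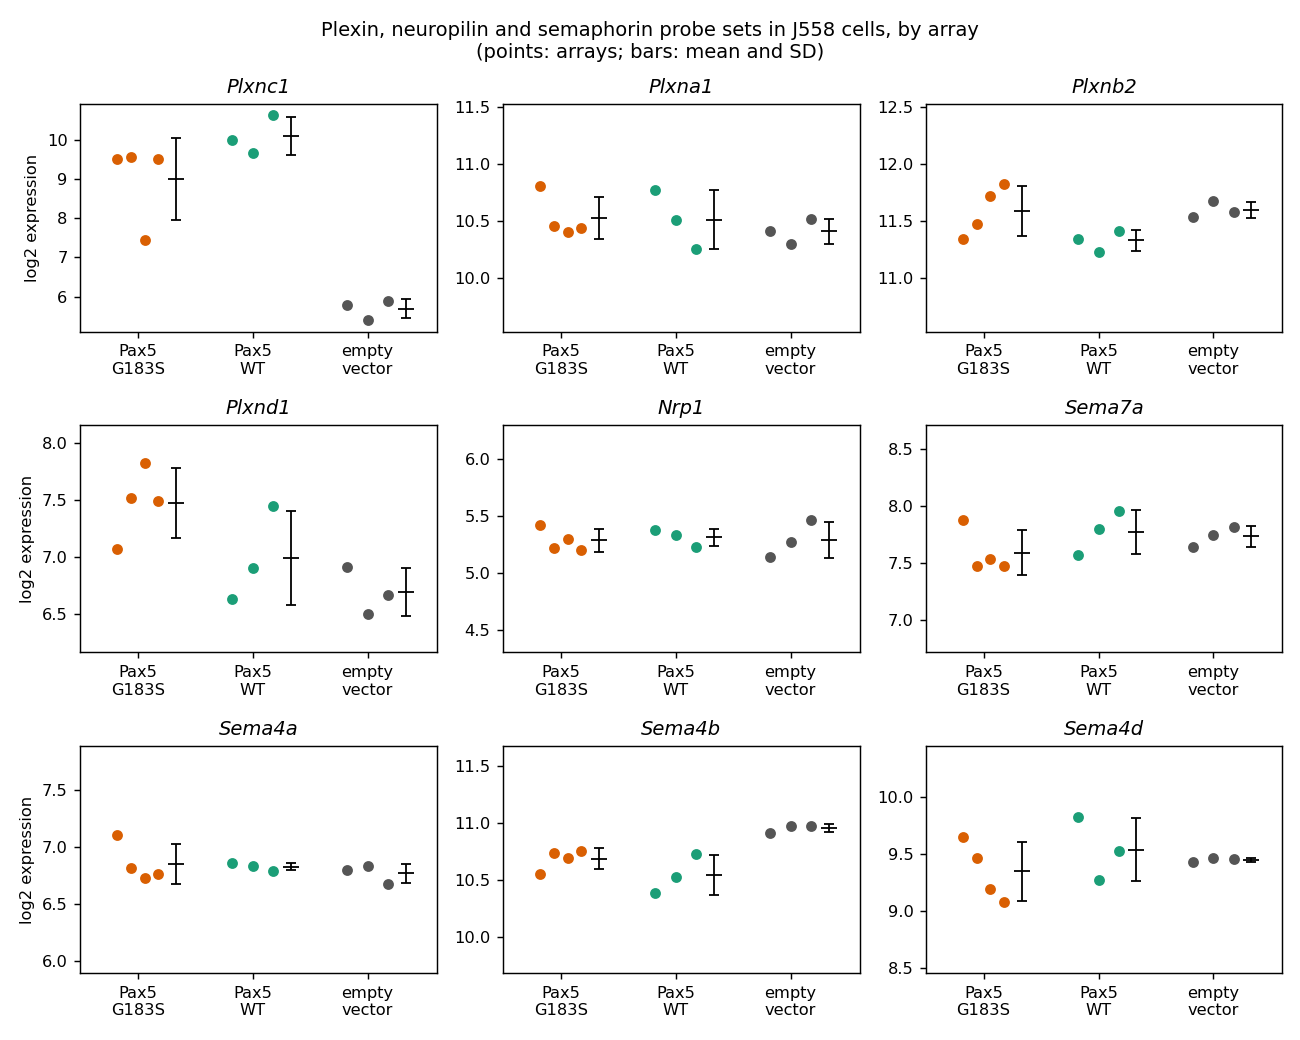
Log2 expression of the 9 genes in each array, with G183S (4 arrays), Pax5 WT (3) and empty vector (3) from left to right; points are arrays, and bars are the group mean and SD. Each panel has its own axis, at least 2 log2 units tall. Plxnc1 separates the 7 Pax5 arrays from the controls, with G183S replicate 3 at 7.43, while the group means of each of the other 8 genes lie less than 1 log2 unit apart.

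Of the 9 members, Plxnc1 alone was called at limma's adjusted p of 0.05 in each comparison with empty vector, where 1.88% of all genes were called with Pax5 WT (0.883% higher and 0.993% lower) and 0.311% with G183S (0.1% higher and 0.211% lower). Since the members were chosen with these contrasts known, nothing is read from that count. Groups did not overlap for 1 member higher and 2 lower with Pax5 WT, against 11.5% and 12.5% of all genes, and for 2 higher and 1 lower with G183S, against 5.02% and 6.56%. The Plxnc1 log2 difference lay between 4.13 and 4.60 with Pax5 WT and between 3.12 and 3.82 with G183S whichever array was left out. The median log2 difference over the 9 members was 0.06 with Pax5 WT and -0.0045 with G183S, against 0.01 and -0.0033 over all genes.

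Within the G183S arrays, Plxnc1 and the Pax5 signal gave the same order of replicates. Plxnc1 differed little among replicates 1, 2 and 4, at 9.50 to 9.54 log2 units. Within the Pax5 WT arrays the orders of Plxnc1 and Pax5 differed. G183S replicate 3 had the lowest Pax5 signal of the 7 Pax5 arrays, at 9.38 log2 units, and also the lowest Plxnc1. Pax5 WT replicate 3 had the highest Plxnc1, 10.61, with a Pax5 signal of 10.05, the lowest of its group. The part of the Pax5 level in these differences was not tested.

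Sema7a, the lipid-anchored ligand of plexin C1, showed no difference of comparable size. It read 7.88, 7.47, 7.54 and 7.47 log2 units in the G183S arrays and 7.57, 7.80 and 7.96 in the Pax5 WT arrays, against 7.64, 7.75 and 7.82 with empty vector. The groups overlapped, and G183S replicate 1 was above the other 3 arrays of its group. The log2 difference from empty vector was 0.04 ± 0.13 (SE) with Pax5 WT and -0.14 ± 0.12 with G183S, or -0.24 without G183S replicate 1. Where Plxnc1 exceeded its own empty-vector mean by 4.92 log2 units, in Pax5 WT replicate 3, Sema7a exceeded its own by 0.22. In G183S replicate 2 the same differences were 3.85 for Plxnc1 and -0.26 for Sema7a.

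**Figure D2:**
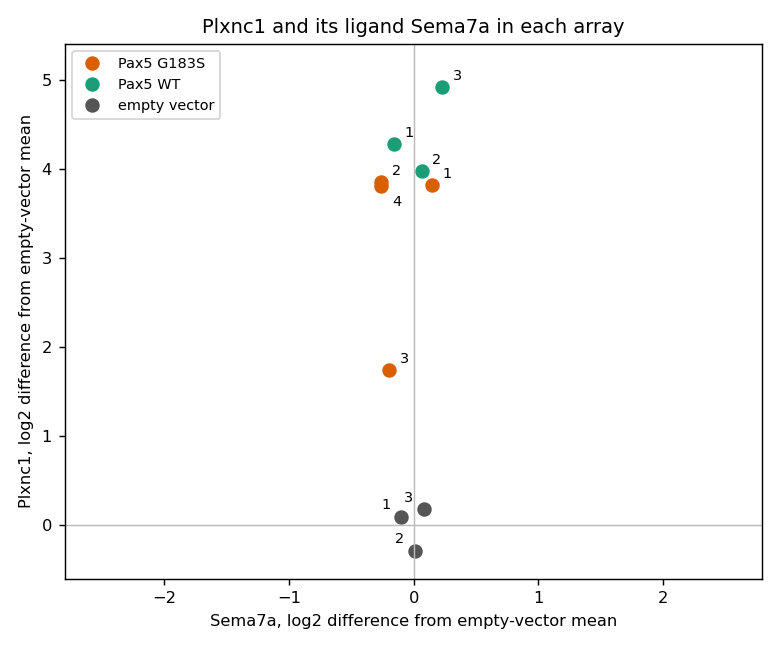
Difference of each array from the empty-vector mean, for Sema7a (horizontal) and Plxnc1 (vertical), both in log2 units; colours are groups and numerals are replicates. The 7 Pax5 arrays spread upward from 1.74 to 4.92 on the Plxnc1 axis, while all 10 arrays lie between -0.26 and 0.22 on the Sema7a axis.

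Sema7a can also bind integrins that contain the beta-1 chain. Itga1, the alpha-1 partner of that chain, read 7.87 to 8.45 log2 units with G183S and 8.43 to 9.01 with Pax5 WT, against 8.27 to 8.64 with empty vector, and the groups overlapped. Its log2 difference from empty vector was -0.32 with G183S (limma adjusted p = 0.555) and 0.20 with Pax5 WT (limma adjusted p = 0.668), or 0.029 without Pax5 WT replicate 2. The Itgb1 probe set, for the beta-1 chain, stayed between 4.86 and 5.08 in all 10 arrays. That level is dim, below every reading of Nrp1, and its distance from background is not known, so its steadiness shows little. Both integrin genes were chosen after their values were seen.

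The other receptors were steady or shifted by less than 1 log2 unit. Plxnd1, the receptor of Sema3e and also a receptor of Sema4a, read 7.07, 7.52, 7.82 and 7.49 log2 units in the G183S arrays and 6.63, 6.91 and 7.44 in the Pax5 WT arrays, against 6.91, 6.50 and 6.67 with empty vector. Every G183S array lay above every empty-vector array, a separation that 11.6% of all genes showed in either direction, while the Pax5 WT arrays overlapped the controls. The log2 difference was 0.78 ± 0.21 (SE) with G183S (0.92 without its replicate 1) and 0.30 ± 0.23 with Pax5 WT. The Pax5 WT value was 0.48 without Pax5 WT replicate 1 and 0.0745 without replicate 3. G183S replicate 3, the lowest of the Pax5 arrays for Plxnc1, was the highest for Plxnd1.

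Plxnb2, the receptor of Sema4c, read 11.34, 11.47, 11.71 and 11.83 log2 units with G183S and 11.34, 11.23 and 11.41 with Pax5 WT, against 11.53, 11.68 and 11.58 with empty vector. The Pax5 WT arrays all lay below the controls, by 0.27 ± 0.12 (SE) on the log2 scale; groups without overlap occurred in 24.0% of all genes in that comparison. The G183S arrays lay on both sides of the controls, with a log2 difference of -0.0087 ± 0.11, or 0.073 without replicate 1.

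Plxna1, a receptor that pairs with neuropilins for secreted semaphorins, read 10.40 to 10.80 log2 units with G183S and 10.26 to 10.77 with Pax5 WT, against 10.30 to 10.52 with empty vector. Its log2 differences from empty vector were 0.11 ± 0.13 (SE) with G183S, or 0.022 without its replicate 1, and 0.10 ± 0.14 with Pax5 WT, which lay between -0.029 and 0.23 when 1 array was left out. Nrp1, the co-receptor, had the narrowest band of the 9 genes together with Sema4a, at 5.21 to 5.43 with G183S and 5.24 to 5.38 with Pax5 WT, against 5.15 to 5.47 with empty vector. Its log2 differences were -0.0045 ± 0.09 with G183S and 0.02 ± 0.09 with Pax5 WT.

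Among the membrane-spanning semaphorins, Sema4b was the member with the clearest separation. It read 10.56, 10.74, 10.70 and 10.76 log2 units in the G183S arrays and 10.39, 10.53 and 10.73 in the Pax5 WT arrays, against 10.92, 10.98 and 10.98 with empty vector. All 7 Pax5 arrays lay below the 3 controls; groups did not overlap, with the Pax5 arrays lower, in 6.56% of all genes with G183S and 12.5% with Pax5 WT. The log2 difference was -0.27 ± 0.09 (SE) with G183S and -0.41 ± 0.09 with Pax5 WT, so the level with Pax5 WT was 0.752 of that with empty vector.

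Sema4d (CD100) engages plexins of the B class and, on B cells, the inhibitory receptor CD72. It read 9.65, 9.47, 9.20 and 9.08 log2 units in the G183S arrays and 9.82, 9.27 and 9.52 in the Pax5 WT arrays, against 9.43, 9.47 and 9.46 with empty vector. The controls were tightly grouped (SD 0.02, n = 3) and the Pax5 cultures scattered on both sides of them (SD 0.26 with G183S, n = 4, and 0.27 with Pax5 WT, n = 3). The log2 difference from empty vector was -0.10 with G183S, or -0.20 without its replicate 1, and 0.09 with Pax5 WT. A further Sema4d probe set, 10409236, differed from empty vector by -0.02 with G183S and -0.15 with Pax5 WT, so with Pax5 WT its sign was opposite to that of the probe set used. Sema4a, which is known for priming T cells, read 6.72 to 7.10 with G183S and 6.79 to 6.85 with Pax5 WT, against 6.67 to 6.83 with empty vector, and the groups overlapped.

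**Figure D3:**
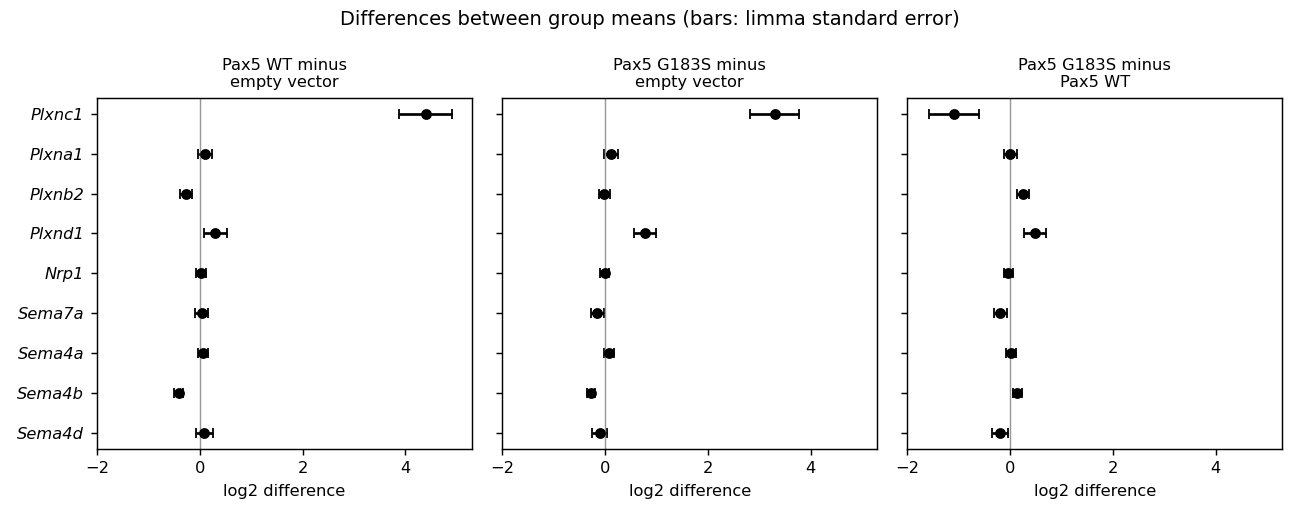
Log2 differences between group means of the 9 genes (points) with limma's standard error (bars), for Pax5 WT minus empty vector, G183S minus empty vector and G183S minus Pax5 WT. Plxnc1 stands at 4.39 and 3.30 against empty vector, and 8 of 9 genes with Pax5 WT and 7 of 9 with G183S lie within 0.5 of 0.

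The direct comparison of G183S with Pax5 WT asks whether the mutant and the wild-type protein acted alike on these genes. None of the 9 passed limma's threshold, nor did any of the 19937 genes (0.0%), although 1891 genes (9.48%), 3 of them members, had an unadjusted p under 0.05. Plxnc1 was lower in all 4 G183S arrays than in all 3 Pax5 WT arrays, a separation that 6.5% of all genes showed in either direction (2.33% higher and 4.17% lower). Its means were 8.997 ± 1.04 (SD, n = 4) with G183S and 10.09 ± 0.48 (n = 3) with Pax5 WT, a log2 difference of -1.09 ± 0.48 (SE; 95% interval -2.16 to -0.02; limma adjusted p = 0.517). That value rests in large part on replicate 3, since the log2 difference was -0.57 without it, and the limma adjusted p ranged from 0.169 to 0.845 over the leave-one-out fits. Without G183S replicate 1, 1113 genes were called and none was a member; the Plxnc1 log2 difference was then -1.26.

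For Plxnd1 the log2 difference between G183S and Pax5 WT was 0.48 (95% interval 0.01 to 0.95; limma adjusted p = 0.517), or 0.30 without Pax5 WT replicate 1, and for Plxnb2 it was 0.26 (0.01 to 0.51; limma adjusted p = 0.514). Sema7a differed by -0.18 (95% interval -0.45 to 0.08; limma adjusted p = 0.612), so a difference larger than 0.45 in either direction lies outside its interval. It was -0.28 without G183S replicate 1, -0.29 without Pax5 WT replicate 1 and -0.094 without Pax5 WT replicate 3. Sema4d differed by -0.19 (95% interval -0.53 to 0.15; limma adjusted p = 0.682), or -0.29 without G183S replicate 1, and lay between -0.32 and -0.048 when any 1 array was left out. Sema4b differed by 0.14 (95% interval -0.05 to 0.34; limma adjusted p = 0.594), with 0.063 without Pax5 WT replicate 1 and 0.235 without replicate 3. Plxna1, Nrp1 and Sema4a differed by 0.01, -0.03 and 0.02 log2 units, with intervals that reached no further than 0.31 in either direction. Missing the threshold does not show that the constructs act alike.

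The rest of the plexin and semaphorin family was listed in full to set the 9 genes in context. Of 22 further plexin, neuropilin and semaphorin genes, all measured, 0 rose and 1 fell with Pax5 WT (0.883% and 0.993% of all genes), and 0 passed limma's threshold with G183S or between the constructs. An unadjusted p under 0.05 was seen for 4 with Pax5 WT, 4 with G183S and 1 between the constructs, against 15.9%, 11.3% and 9.48% of all genes. In each comparison with empty vector 4 of the 22 lay below all controls and 0 above. Over all genes, 12.5% lay below all controls and 11.5% above with Pax5 WT, and 6.56% and 5.02% with G183S. In 20 of the 22 the 10 arrays spanned less than 1 log2 unit. The median log2 difference of the 22 genes from empty vector was 0.02 with Pax5 WT and -0.0079 with G183S, against 0.01 and -0.0033 over all genes. Plxnc1 had the highest difference from empty vector of all 31 family genes with either construct. That difference was known when the family was chosen, so nothing is read from this rank.

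The gene that fell was Sema4c, a membrane-spanning ligand of plexin B2. It read 7.02, 7.03, 7.17 and 7.08 log2 units with G183S and 6.52, 6.76 and 6.93 with Pax5 WT, against 7.23, 7.74 and 7.63 with empty vector. All 7 Pax5 arrays lay below the controls. Sema4c was 1 of the 4 genes below all controls in each comparison, though the 4 were not all the same genes in both. The log2 difference with Pax5 WT was -0.80 ± 0.14 (SE, limma adjusted p = 0.0260), and with G183S it was -0.46 ± 0.13 (limma adjusted p = 0.166). The Pax5 WT call was lost without empty-vector replicates 2 (limma adjusted p = 0.127) or 3 (0.121), or without Pax5 WT replicates 1 (0.0792) or 2 (0.0653), where the log2 difference lay between -0.69 and -0.81, and limma adjusted p was 0.107 without moderation.

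Plxna4, a plexin that pairs with neuropilins, had the most negative value of the family with G183S; it was chosen after its values were seen. It read 8.63, 7.76, 7.71 and 7.99 log2 units with G183S and 8.19, 9.22 and 8.07 with Pax5 WT, against 9.09, 9.24 and 9.39 with empty vector. All G183S arrays lay below the controls and Pax5 WT replicate 2 lay among them. Its log2 difference was -1.22 ± 0.29 (SE) with G183S (limma adjusted p = 0.110) and -0.75 ± 0.31 with Pax5 WT (limma adjusted p = 0.275); the Pax5 WT value lay between -0.53 and -1.11 when 1 array was left out. Sema6c and Sema6d, also chosen after their values were seen, lay below the controls in all 7 Pax5 arrays, by 0.21 to 0.28 log2 units on average, with limma adjusted p from 0.156 to 0.187. Such separations were found in 6.56% of all genes with G183S and 12.5% with Pax5 WT.

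**Figure D4:**
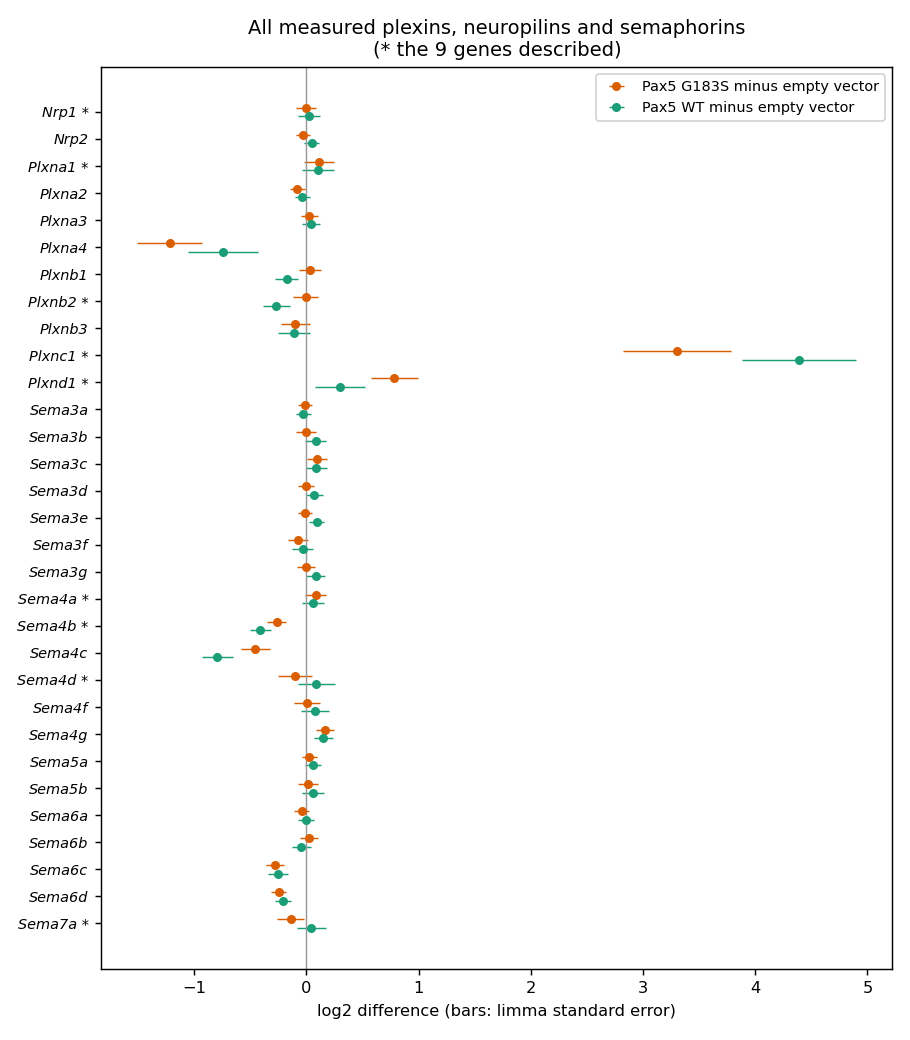
Log2 differences from empty vector for all 31 measured plexins, neuropilins and semaphorins, with G183S above Pax5 WT in each row and bars for limma's standard error; asterisks mark the 9 genes. Plxnc1 lies at 3.30 and 4.39, Plxna4 at -1.22 and -0.75, Sema4c at -0.46 and -0.80, and most others near 0.

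Other partners of the system gave no call. Of 14 further genes (semaphorin receptors, co-receptors, Nrp1 ligands and Gipc1), 0 passed limma's threshold in any of the 3 comparisons. An unadjusted p under 0.05 was seen for 2 with Pax5 WT, 3 with G183S and 3 between the constructs, against 15.9%, 11.3% and 9.48% of all genes. Their median log2 difference from empty vector was 0.10 with Pax5 WT and -0.0051 with G183S. The 3 with the smallest p with Pax5 WT were Vegfa, the vascular growth factor that binds Nrp1 (0.28, limma adjusted p = 0.304), Timd2, a receptor of Sema4a (0.21, limma adjusted p = 0.307), and Flt1, a receptor of vascular growth factors (0.15, limma adjusted p = 0.483). Cd72, the B-cell receptor of Sema4d, was chosen after its values were seen; it read 6.35, 5.88, 5.71 and 5.86 log2 units with G183S and 5.34, 5.64 and 5.60 with Pax5 WT, against 5.28, 5.25 and 5.39 with empty vector. Its log2 difference was 0.65 ± 0.14 (SE) with G183S (limma adjusted p = 0.0884), or 0.51 without replicate 1, and 0.22 ± 0.15 with Pax5 WT (limma adjusted p = 0.528).

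Of 39 genes that act below plexins, 36 were measured. With Pax5 WT 0 rose and 1 fell, against 0.883% and 0.993% of all genes. Limma's threshold was passed by 0 with G183S and 0 between the constructs, against 0.311% and 0.0% of all genes. An unadjusted p under 0.05 was seen for 11 with Pax5 WT, 9 with G183S and 5 between the constructs, against 15.9%, 11.3% and 9.48% of all genes. With Pax5 WT 4 of the 36 lay above all controls and 11 below, and with G183S 1 above and 7 below, where all genes gave 11.5% and 12.5% with Pax5 WT and 5.02% and 6.56% with G183S. The one that fell was Ssh1, the slingshot phosphatase that activates the actin-severing protein cofilin. It read 8.45, 8.70, 8.71 and 8.62 log2 units with G183S and 8.60, 8.43 and 8.60 with Pax5 WT, against 8.99, 9.09 and 9.06 with empty vector, so all 7 Pax5 arrays lay below the controls. With Pax5 WT the Ssh1 level differed by -0.51 ± 0.08 on the log2 scale (SE, limma adjusted p = 0.0230). With G183S it was -0.43 ± 0.08 and did not pass (limma adjusted p = 0.0666), though it did without G183S replicate 1 (limma adjusted p = 0.0420). The Pax5 WT call was lost without any 1 of the 3 empty-vector arrays or Pax5 WT replicates 1 or 2 (limma adjusted p from 0.0561 to 0.122), while the log2 difference stayed between -0.45 and -0.53 over all leave-one-out fits. Limma adjusted p was 0.0747 without moderation and 0.0585 with the replicate number as a block.

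Cofilin itself (Cfl1) stayed between 12.65 and 12.88 log2 units in all arrays, and Limk2, a kinase that inactivates it, between 8.59 and 9.10; both were chosen after their values were seen. Rras2, a Ras-type GTPase and also chosen after its values were seen, read 8.34, 7.92, 7.60 and 7.75 with G183S and 9.22, 8.20 and 9.35 with Pax5 WT, against 7.92, 7.76 and 7.72 with empty vector. The G183S arrays overlapped the controls, and the log2 difference with Pax5 WT was 1.13 ± 0.28 (SE, limma adjusted p = 0.0810). Fyn, Ptk2b and Rac2, also chosen after their values were seen, had lower means with both constructs. Their log2 differences with Pax5 WT were -0.77, -0.41 and -0.62 (limma adjusted p = 0.308, 0.313 and 0.116). With G183S they were -0.71, -0.74 and -0.38 (limma adjusted p = 0.446, 0.103 and 0.421). With Pax5 WT they were among 11 of the 36 genes below all controls, with 4 above (12.5% and 11.5% of all genes). The median log2 difference over the 36 genes was -0.09 with Pax5 WT and -0.08 with G183S.

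Genes whose pattern was most like that of Plxnc1 were ranked by Pearson r over the 10 arrays among 1814 named genes that spanned at least 1 log2 unit. The 8 highest were Csrp2, a LIM-domain protein (r = 0.977), Irf8, an interferon regulatory factor of B and myeloid cells (0.976), the formin gene Fhod3 (0.966), the stress-response gene Gadd45a (0.966), the sorting nexin gene Snx2 (0.962), Psd3 (0.962), the lipid scavenger receptor gene Cd36 (0.957) and Pax5 itself (0.957). All points share the contrast of Pax5 with empty vector, so these values describe the group difference above all.

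With the group means subtracted, the 8 genes closest to Plxnc1 over the 10 arrays were Cd86 (r = 0.937), Mgll (0.882), Csrp2 (0.880), Prss55 (0.859), Zgrf1 (0.807), Atp1b1 (0.794), Twsg1 (0.793) and Irf8 (0.787). G183S replicate 3 set much of this ranking. Without it, r was 0.902 for the co-stimulatory gene Cd86, 0.724 for the protease gene Prss55, 0.664 for the lipase gene Mgll and 0.593 for Twsg1. It was 0.463 for Csrp2, 0.371 for the sodium pump gene Atp1b1, -0.18 for Zgrf1 and -0.13 for Irf8. Cd86 read 5.31, 5.36, 4.98 and 5.25 log2 units with G183S and 5.78, 5.74 and 5.99 with Pax5 WT, against 5.42, 5.28 and 5.36 with empty vector. Its highest Pax5 array, Pax5 WT replicate 3, and its lowest, G183S replicate 3, were the same arrays as for Plxnc1. Without either of those arrays, Cd86 would have spanned less than the 1 log2 unit needed to enter the ranking. Its readings are dim, around those of Nrp1, and their distance from background is not known.

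**Figure D5:**
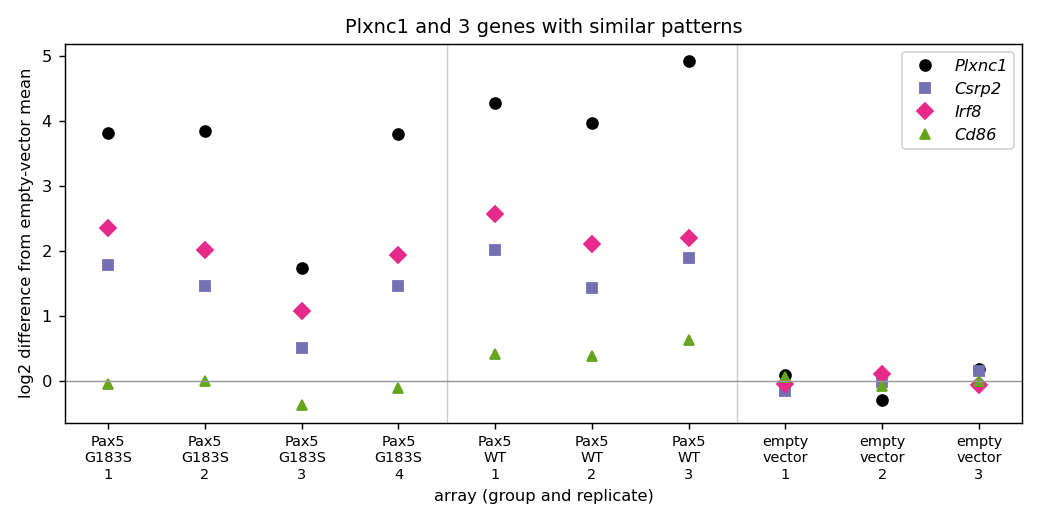
Log2 difference of each array from the gene's own empty-vector mean, for Plxnc1, Csrp2, Irf8 and Cd86, with G183S, Pax5 WT and empty-vector arrays from left to right. In G183S replicate 3 each of the 4 genes is at its lowest among the Pax5 arrays, with Plxnc1 at 1.74, Irf8 at 1.08, Csrp2 at 0.51 and Cd86 at -0.37.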

How the data were processed

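Total RNA (100 ng per culture) was amplified and hybridised to whole-transcript arrays, per the labels' protocols. The values the authors deposited are on a log2 scale, 1 per probe set and array. Per the submitters' processing notes, RMA (background correction, normalization between arrays and summary over probes) and the Partek software were involved; no version or role is stated. Normalizing to a common distribution would hide a shift shared by most genes. No scanner file, detection call or scan date entered the work. Array medians were 6.81 to 6.94 log2 units; the number of arrays limits precision.

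Of 34760 probe sets, 21640 had 1 gene symbol in the platform annotation, 1321 several and 11799 none; 21553 single symbols matched RefSeq (GRCm38.p6) by gene identifier. The highest-mean probe set per gene left 19937 genes. limma 3.58.1 in R 4.3.3 fitted 1 coefficient per group to all 10 arrays (7 residual and 2.88 prior degrees of freedom), with Benjamini-Hochberg adjustment over all genes, a two-sided threshold of 0.05 and no filter. The fit was tested on simulated arrays. Promoters and motif counts used RefSeq windows; Plxna1 had none. Figures used Python 3.11.15 and matplotlib 3.10.9.

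Named genes are Pax5, the 9 members, called genes of the 3 pathway lists (or the 3 with the smallest p), and 8 genes per likeness measure, where predicted genes, clone names, small RNAs, antigen receptors and olfactory and vomeronasal receptors were passed over; others are marked as chosen after their values were seen. The members and lists were chosen with earlier results of these data known. Lyn, Pak1 and Ptk2 had no probe set with their symbol alone. Alternatives were median centring, quantile normalization, leaving out genes whose mean lies under 7.23 log2 units, averaging probe sets, array weights, no moderation, a trended robust prior, the compared groups only, a replicate block and leaving out each array.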

Additional observations from a re-analysis of the deposited data

Results flagged for a closer look

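Among 28 named genes, 3 had a G183S array whose gap to its nearest neighbour filled more of the range of the 4 arrays than Dixon's 95% limit of 0.829; about 1 in 20 independent groups would do so by chance. That share cannot be set against these 3, since the genes include those chosen for likeness to Plxnc1 and share the same 4 arrays. In Plxnc1 it was replicate 3, which was low (7.43 log2 units, against 9.50 to 9.54 in the others; gap over range 0.978). In Plxna1 it was replicate 1, which was high (10.80, against 10.40 to 10.46; 0.857). In Sema7a it was again replicate 1, which was high (7.88, against 7.47 to 7.54; 0.838). The groups of 3 arrays were not examined in this way.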

How the results depend on the processing

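The Plxnc1 difference from empty vector kept its sign under every alternative run, at 4.11 to 4.39 with Pax5 WT and 3.14 to 3.50 with G183S in the 9 settings other than leaving out an array. Counts of calls were less steady. With Pax5 WT against empty vector, 374 genes were called (176 higher, 198 lower); median centring gave 102 higher and 246 lower, and 2 members, Plxnc1 and Sema4b. Array weights called 2576 genes and 3 members, no moderation 4 and 0, and the compared groups alone 587 genes; leaving out 1 array gave 6 to 1033 genes and 0 to 2 members (0 without empty-vector replicate 2 or 3). With G183S against empty vector, 62 genes were called (20 higher, 42 lower; 42 higher and 50 lower after quantile normalization). Array weights called 1449 genes and 2 members, and no moderation 6 and 0; leaving out 1 array gave 8 to 295 genes and 0 to 1 members (0 without empty-vector replicate 1, 2 or 3 or G183S replicate 2 or 4). Between G183S and Pax5 WT, array weights called 2752 genes and 3 members (Plxnb2, Plxnd1 and Sema7a), no moderation 1 gene, and leaving out 1 array 0 to 1113 genes and 0 members. In that comparison small log2 differences changed sign for Plxna1 (-0.015 with quantile normalization, -0.033 with array weights, and -0.12 to 0.14 on leaving out 1 array, negative without Pax5 WT replicate 3 or G183S replicate 1), Nrp1 (0.001 with the replicate block, and -0.073 to 0.0035 on leaving out 1 array, positive without Pax5 WT replicate 1 or G183S replicate 4) and Sema4a (-0.026 with array weights and -0.062 to 0.065 on leaving out 1 array, negative without G183S replicate 1). Of 782 single-gene values recomputed, 755 were counted as unchanged, by 2 rules. For members against empty vector the rule was a move of less than 1 SD, even where a call was lost or an uncalled difference changed sign. For all other values it was the same direction and side of the threshold. Plxnc1 with G183S thus counted as unchanged in all 19 settings, though called in 7 of 9 settings and 5 of 10 leave-one-out fits. The cause of these changes was not tested. With a replicate block, 228, 10 and 2 genes were called in the 3 comparisons in the order above, with 1, 0 and 0 members; arrays with the same number did not deviate together throughout (r from -0.16 to 0.51), and not every array correlated best with its own number. Without detection calls or background signal, dim levels such as those of Nrp1 limit what could be seen. The sources give no culture or batch links beyond the replicate numbers.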
